A study of Mus musculus with 7 samples.

Results

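The sterol genes of the mouse gastric corpus were followed as a set of 30 genes named by symbol: 18 enzymes of cholesterol synthesis, 5 genes of SREBP control, 3 genes of sterol transport inside the cell, and 4 genes of LXR and sterol efflux. Members were the genes with an array probe set annotated to that symbol alone, taking the probe set with the highest mean where there was more than 1. That left 27 of the 30 genes, among 22180 genes in all: 16 synthesis enzymes, 5 SREBP control genes, 3 transport genes and 3 LXR and efflux genes. The enzyme genes Acat2 and Idi1 and the receptor gene Nr1h2 were not analysed here; Idi1 shared its probe set with another gene.

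The 7 arrays held RNA of gastric corpus, where the stomach secretes acid, from Atp4b-DTR mice aged 8 to 12 weeks, with littermates as controls where that could be done. Atp4b encodes a subunit of the pump that makes parietal cells secrete acid, and in this genotype, as its name gives, the Atp4b promoter drives the receptor for diphtheria toxin, so that the toxin ablates parietal cells reversibly. All groups carried the transgene: 1 control array came from saline-treated mice, and 6 arrays came from mice given 225 ng of toxin daily for 3 days and sampled 24 h (1 array), 36 h (1), 48 h (2) or 72 h (2) after the last dose. The 48 h and 72 h samples are described as independent, but the number of mice behind an array and the meaning of the letters A and B of the 72 h samples are not stated. The p-values thus cover no more than the spread among these arrays, which may be technical, and their small number limits precision; every comparison with the control rests on the same lone array. Values are log2 signal, or log2 differences from the control array where so stated, and levels of different genes are not compared because each probe set has its own response. Where 6 toxin arrays are listed, the order is 24 h, 36 h, the first and second 48 h array, and the first and second 72 h array.

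Cells make cholesterol from acetyl-CoA through mevalonate, the branch point farnesyl diphosphate, squalene and lanosterol. When sterol in the endoplasmic reticulum is low, the carrier SCAP brings SREBP-2 to the Golgi, where it is cut and released to activate the genes of this pathway; when sterol is ample, INSIG proteins hold the complex back. Oxysterols act on the LXR receptors, which activate the exporters ABCA1 and ABCG1, while NPC1 and NPC2 release cholesterol taken up into lysosomes.

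The promoters of the members that were at least 2-fold lower at 24 h are shown because these genes were low together on the same arrays. RefSeq promoters (mouse GRCm38.p6) were found for 24 of the 30 named genes, measured or not, and 5 of the 8 genes at least 2-fold lower at 24 h were among them. The lines below give the 200 bases before the start of transcription, 5′ to 3′ on the gene's strand. Capitals mark 3 motifs searched on both strands: TCACNCCAC (a sterol element), ATTGG or its complement CCAAT (the CCAAT box, bound by NF-Y) and CACGTG (an E box). They come from chr13:119690151-119690350 (Hmgcs1, plus strand), chr10:76531405-76531604 (Lss, plus), chr5:4104698-4104897 (Cyp51, minus), chr8:64733579-64733778 (Msmo1, minus) and chr5:28071212-28071411 (Insig1, plus).
Hmgcs1: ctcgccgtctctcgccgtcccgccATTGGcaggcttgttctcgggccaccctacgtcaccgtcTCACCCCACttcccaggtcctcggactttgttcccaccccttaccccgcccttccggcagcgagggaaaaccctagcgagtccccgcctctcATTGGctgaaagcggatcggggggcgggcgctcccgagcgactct
Lss: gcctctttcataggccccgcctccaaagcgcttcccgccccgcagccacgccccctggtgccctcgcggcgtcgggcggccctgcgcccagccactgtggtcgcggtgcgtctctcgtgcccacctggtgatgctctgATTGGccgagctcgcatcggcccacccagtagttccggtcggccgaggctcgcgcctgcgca
Cyp51: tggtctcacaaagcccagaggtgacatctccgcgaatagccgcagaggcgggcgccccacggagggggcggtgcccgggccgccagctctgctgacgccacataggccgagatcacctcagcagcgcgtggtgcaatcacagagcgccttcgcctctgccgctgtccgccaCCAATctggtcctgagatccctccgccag
Msmo1: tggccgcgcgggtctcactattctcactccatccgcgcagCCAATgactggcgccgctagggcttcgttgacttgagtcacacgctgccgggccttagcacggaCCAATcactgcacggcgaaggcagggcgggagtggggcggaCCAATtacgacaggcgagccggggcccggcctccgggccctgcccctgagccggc
Insig1: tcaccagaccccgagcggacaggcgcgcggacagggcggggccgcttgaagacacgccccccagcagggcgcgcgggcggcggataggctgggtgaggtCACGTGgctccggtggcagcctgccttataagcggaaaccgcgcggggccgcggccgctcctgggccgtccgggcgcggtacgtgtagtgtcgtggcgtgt

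Over the full window of 250 bases before to 50 bases after the start, the CCAAT box was present in 14 of 15 synthesis enzymes with a promoter and in 19 of the 24 genes, against 41.1% of 27025 genes. The sterol element in this exact form was found in Hmgcs1 alone among the members, beginning at position -137 from the start, and in 1.44% of all genes. A GC box (GGGCGG) was held by 21 of the 24 and 38.2% of genes, and an E box by 6 (Hsd17b7, Sc5d, Dhcr7, Insig1, Scap and Abca1) and 8.09% of genes. The DR4 motif of LXR was searched only as an exact direct repeat of AGGTCA with a spacer of 4 bases. In this form it occurred in 0 of the 24 and in 0.0148% of genes. Looser forms of the motif were not searched, so their presence is not known from this count. These are matches of letters and were not tested for binding.

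The tissue label was checked first. Parietal cell markers were strongly expressed on the control array (Atp4a at 12.78 and Atp4b at 12.94) and mostly lower on the toxin arrays. Among them Esrrg stayed within 0.27 of the control, and Ckb was 0.57 above it on the second 72 h array. Slc26a7 was between -4.40 and -3.38 on all 6 toxin arrays. The median difference of 10 parietal markers was -1.53, -0.64, -1.26, -0.78, -0.52 and -0.14 over the 6 toxin arrays, and their summed signal was 31.7%, 63.2%, 42.2%, 66.3%, 75.1% and 92.4% of the control. In whole tissue, fewer cells of a type and less RNA per cell cannot be told apart. The 6 markers of cycling cells had medians of 1.44, 1.21, 1.08, 1.01, 0.86 and 0.56 in that order. The 8 macrophage markers had medians between -0.13 and 0.14 and a summed signal between 87.5% and 116% of the control. The hepatocyte gene Alb was 5.11 above the control on the second 48 h array and from 0.21 to 1.00 above it on the other toxin arrays, while Serpina1a lay within 0.13 of the control throughout and the median of 4 hepatocyte markers was -0.14 on that 48 h array. The 4 squamous forestomach markers had a summed signal of 84.0%, 100%, 45.1%, 115%, 176% and 42.3% of the control over the 6 toxin arrays. Among them Krt13 was at -1.55 and 0.28 on the 48 h arrays and at 1.18 and -2.07 on the 72 h arrays. Lor was at -1.88, 0.09, 0.43 and -1.50 on these arrays, while Krt14 and Trp63 lay within 0.24 of the control throughout. The part of forestomach tissue in the spread within the pairs was not tested. Xist, which is transcribed from the inactive X chromosome of females, read 8.13 (control) and 9.17 (24 h), and from 2.70 to 3.27 elsewhere, so the comparisons of 24 h with control, of 48 h with 36 h and of 72 h with 48 h were each made within 1 sex pattern, whereas those of 36 h, 48 h and 72 h with control and of 72 h with 24 h also compare the patterns.

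At 24 h the synthesis pathway was lower almost throughout, with a median of -1.28 for the 3 squalene enzymes, -0.71 for the 8 enzymes after lanosterol and -0.49 for the 5 mevalonate enzymes. Of 16 enzymes 15 were below the control, with a median of -0.72, and 7 were at least 2-fold lower, as was Insig1; no member was at least 2-fold higher. Over all genes 46.6% were lower and 44.8% higher on this array, 1.67% at least 2-fold lower and 1.2% at least 2-fold higher. At 1.5-fold, 10 enzymes and 13 of the 27 members were lower, against 5.44% of all genes, and Abca1 was the 1 member higher, against 3.94%. Between the arrays of the 48 h pair and of the 72 h pair, 0.482% and 0.32% of genes differed at least 2-fold and 2.72% and 1.69% at least 1.5-fold, with 0 of the 27 members among them. The 3 LXR and efflux genes were all above the control, with a median of 0.24, and the median of the 5 SREBP control genes was -0.07. No test was made of 1 array against 1.

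**Figure D1:**
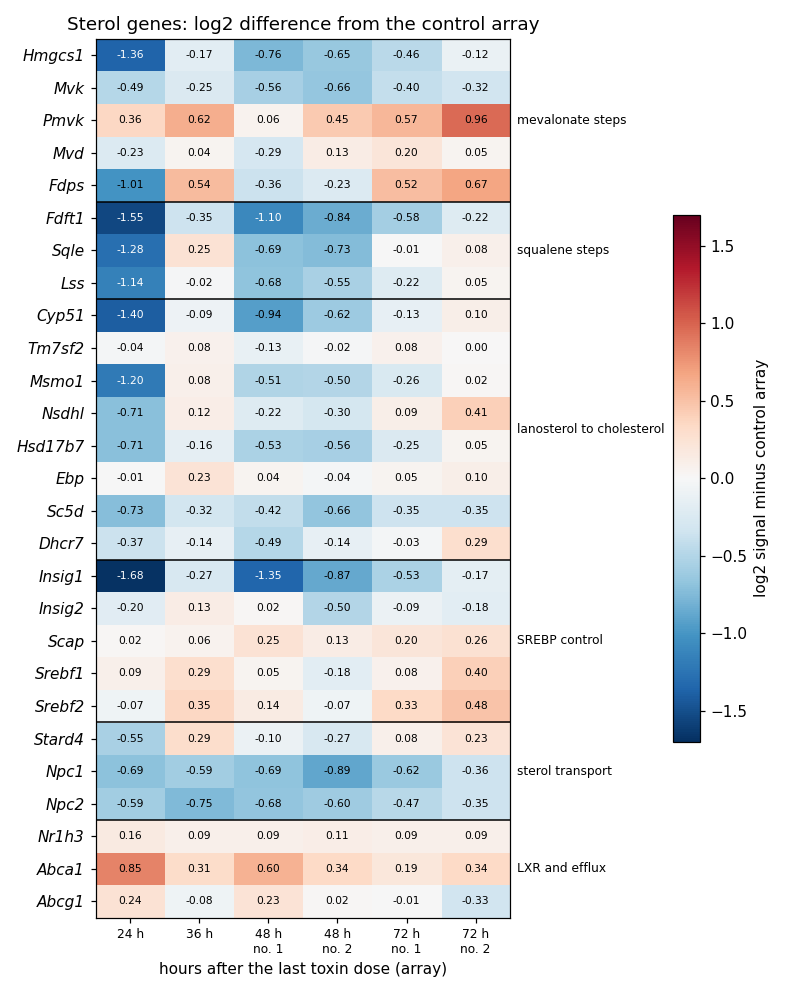
Log2 difference of each of the 27 sterol genes (rows, grouped by role) from the control array on the 6 toxin arrays (columns); blue is lower and red higher than the control, and the value is printed in each cell. Synthesis enzymes and Insig1 form the blue blocks at 24 h and on both 48 h arrays, with Insig1 lowest at -1.68, while Pmvk and Abca1 are red on every toxin array.

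The mevalonate enzymes differed among themselves. Hmgcs1, which makes the HMG-CoA from which mevalonate is formed, had a log2 signal of 10.93 in the control and of 9.57, 10.76, 10.17, 10.28, 10.48 and 10.82 on the toxin arrays. The control was the highest array and 24 h the lowest, 2.57-fold below it. Fdps, which makes farnesyl diphosphate, had a signal of 7.21 in the control and of 6.20, 7.75, 6.85, 6.98, 7.73 and 7.88 after toxin. It was thus below the control at 24 h and 48 h and above it at 36 h and 72 h. The kinase gene Mvk was below the control on all 6 toxin arrays, by differences from -0.66 to -0.25. Pmvk, the next kinase, was above it on all 6, with the smallest difference, 0.06, on the first 48 h array (where subtracting array medians, which lay 0.10 above the control, turns the sign) and the largest, 0.96, on the second 72 h array. Mvd, the decarboxylase that follows, ranged from -0.29 to 0.20.

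All 3 squalene enzymes were at least 2-fold lower at 24 h. Fdft1, which encodes squalene synthase, had a log2 signal of 9.19 in the control and of 7.65, 8.84, 8.09, 8.35, 8.61 and 8.97 on the toxin arrays. It was 2.92-fold lower at 24 h and below the control on every toxin array. Sqle, squalene epoxidase, had a signal of 8.20 in the control and of 6.91, 8.45, 7.50, 7.46, 8.19 and 8.28 after toxin. Its 36 h and second 72 h arrays lay above the control and its first 72 h array was level with it. Lss, which closes the ring to lanosterol, had differences from control of -1.14, -0.02, -0.68, -0.55, -0.22 and 0.05.

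Among the enzymes that turn lanosterol into cholesterol, Cyp51, the lanosterol demethylase, stood furthest from the control. Its signal was 8.45 in the control and 7.05, 8.36, 7.51, 7.83, 8.32 and 8.55 on the toxin arrays, with only the last above the control. Msmo1, the sterol methyl oxidase, had differences from control of -1.20, 0.08, -0.51, -0.50, -0.26 and 0.02. Nsdhl and Hsd17b7, which act with it in removing methyl groups, were at -0.71 and -0.71 at 24 h, and at 0.41 and 0.05 on the second 72 h array. Sc5d, the desaturase, stayed below the control on all 6 arrays, with the largest difference, -0.73, at 24 h and the smallest, -0.32, at 36 h. Dhcr7, the last reductase, ranged from -0.49 on the first 48 h array to 0.29 on the second 72 h array. Tm7sf2, another sterol reductase, and Ebp, the sterol isomerase, kept closest to the control, within 0.13 and 0.23 of it on every array. Nsdhl and Ebp are X-linked, and the part of the sex pattern in their values was not tested.

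The SREBP control genes differed from each other at 24 h. Insig1, itself a target of SREBP, had a log2 signal of 9.96 in the control and of 8.28, 9.69, 8.61, 9.10, 9.43 and 9.79 after toxin. It was 3.21-fold lower at 24 h, the largest difference of any member. Its relative Insig2 was between -0.50 and 0.13 from the control. Srebf2, which encodes SREBP-2, had a signal of 8.39 in the control and of 8.32, 8.73, 8.53, 8.32, 8.72 and 8.87 after toxin, so that the 36 h array and both 72 h arrays were its 3 highest. Srebf1, whose products mainly drive fatty acid synthesis, ranged from -0.18 to 0.40 from the control, and Scap from 0.02 to 0.26. A dim second probe set of Scap did not show this. It read 4.95 in the control and 4.99, 4.57, 4.94, 4.76, 5.01 and 4.88 on the toxin arrays. Taking the mean of both probe sets moved the SREBP control median at 72 h from 0.23 to 0.11. On the 24 h array the genes of SREBP itself and of its carrier (Srebf1, Srebf2 and Scap) were between -0.07 and 0.09 from the control.

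Sterol transport genes showed 2 courses. Stard4, a cytosolic sterol carrier, had a signal of 6.85 in the control and of 6.30, 7.15, 6.75, 6.58, 6.94 and 7.08 after toxin, lowest at 24 h like most enzymes. Npc1, the lysosomal membrane protein that exports cholesterol, had a signal of 7.27 in the control and of 6.57, 6.67, 6.58, 6.38, 6.64 and 6.91 after toxin. Its soluble partner Npc2 had a signal of 8.08 in the control and of 7.49, 7.33, 7.41, 7.48, 7.61 and 7.74 after toxin. Both were below the control on every toxin array, 36 h included, where the enzymes had a median of 0.01. A dim second probe set of Npc1, between 3.70 and 3.78 on all arrays, did not show this, and taking the mean of both probe sets moved the transport median at 48 h from -0.64 to -0.39.

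LXR and efflux genes were the only role with no member below the control at 24 h. Abca1, which exports cholesterol to apolipoproteins, had a log2 signal of 5.84 in the control and of 6.68, 6.15, 6.44, 6.18, 6.03 and 6.18 on the toxin arrays. It was above the control on all 6 toxin arrays, by 1.80-fold at 24 h. Abcg1, which exports to HDL, had differences of 0.24, -0.08, 0.23, 0.02, -0.01 and -0.33. The receptor gene Nr1h3 was from 0.09 to 0.16 above the control, with only 4 distinct values on 7 arrays, and subtracting array medians turns the median of these 3 genes at 36 h from 0.09 to -0.0048. The macrophage marker Cd68 was also highest at 24 h and on the first of the 48 h arrays, where Abca1 and Abcg1 were highest. Its differences were 0.83, -0.06, 1.19, 0.05, -0.37 and 0.01. The other 7 macrophage markers were between -0.23 and 0.19 at 24 h and between -0.60 and 0.00 on that 48 h array. Over all toxin arrays these 7 were between -0.60 and 0.40. The part of macrophages in the efflux values was not tested.

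**Figure D2:**
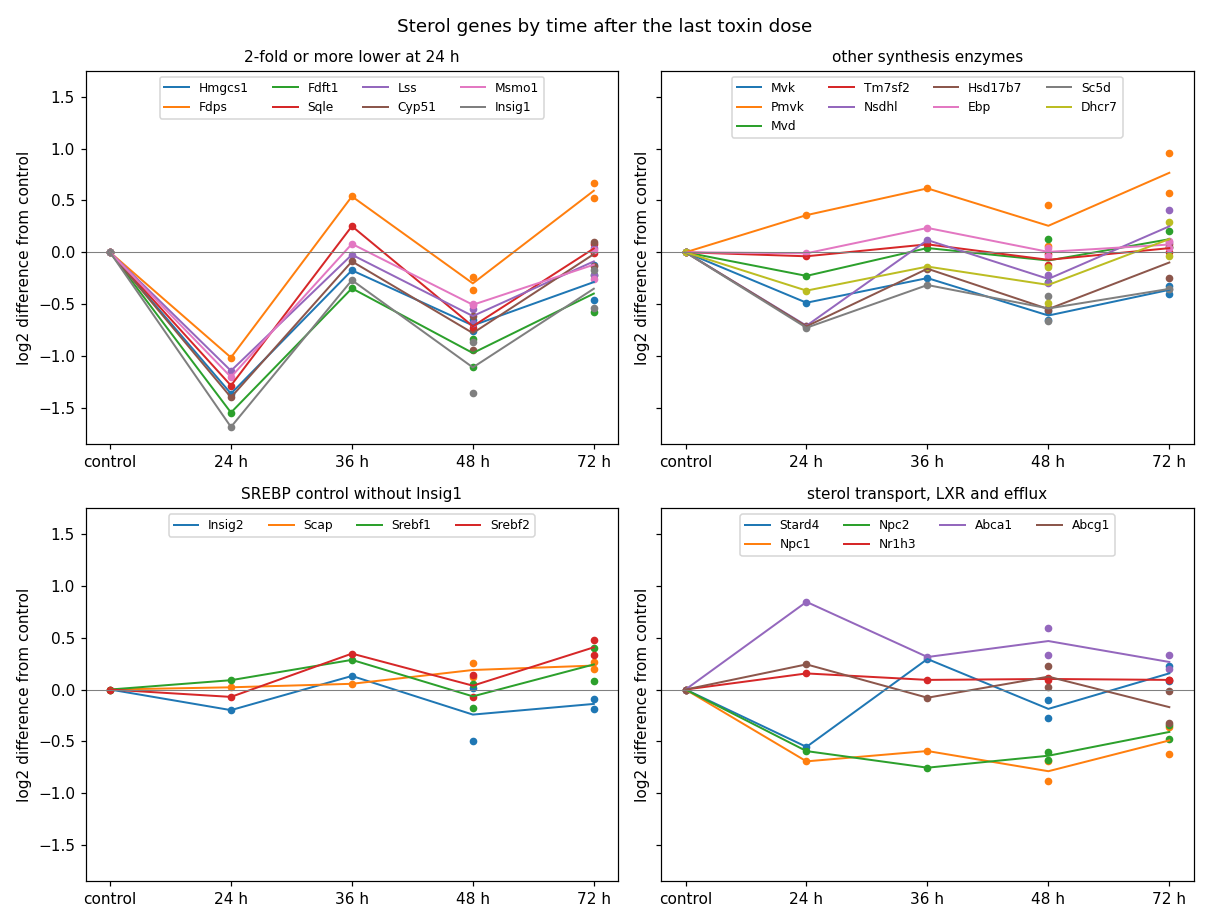
Log2 difference from the control array (vertical axis) at control, 24, 36, 48 and 72 h (horizontal axis, times equally spaced) for the 27 sterol genes in 4 panels; points are arrays and lines join the means of each time. The 8 genes of the first panel are lower at 24 h and at 48 h than at 36 h and 72 h, with Fdps above 0 at 36 h and 72 h, whereas Npc1 and Npc2 stay below 0 throughout and Abca1 above it.

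The 36 h array stood apart from its neighbours in time. The synthesis median was 0.01 there, with 8 enzymes above and 8 below the control, where 46.4% of all genes were below and 44.4% above it. No member was at least 2-fold lower or higher, against 1.61% and 0.933% of all genes. At 1.5-fold, Npc1 and Npc2 were lower, against 5.49% of genes, and Pmvk was higher, against 3.99%. The synthesis median was -0.50 and -0.53 on the 48 h arrays and -0.08 and 0.05 on the 72 h arrays. In 10 of 16 enzymes, and in Insig1, Srebf2 and Stard4, the 24 h array lay below both 48 h arrays, these below both 72 h arrays, and the 36 h array above both 48 h arrays. Of all genes 2.02% had this order, and 3.77% had it without the condition on 36 h. The order was chosen after the values were seen, and it sets the 24 h array against arrays of the other sex pattern. The 24 h array was the lowest of all 7 in the same 13 members and in 13.3% of genes. Cell type markers followed part of this course. The summed parietal signal was 31.7% of the control at 24 h, 63.2% at 36 h, and 42.2% and 66.3% on the 48 h arrays, and the median of these markers was -0.64 at 36 h and -0.78 on the second 48 h array. The 5 adipocyte markers had medians of -0.23, 0.04, -0.25, -0.26, 0.00 and 0.09 over the 6 toxin arrays, and their summed signal was 84.4%, 140%, 91.1%, 81.5%, 107% and 107% of the control. Among them Retn, which encodes the adipocyte hormone resistin, had differences of -1.12, 0.41, -0.56, -0.78, -0.30 and 0.03, while Adipoq and Lep had a log2 signal under 4 on all 7 arrays. Cidec had differences of -0.09, 0.65, 0.00, -0.30, 0.20 and 0.09. Plin1 did not share the course of Retn, with 0.01, 0.04, -0.25, 0.26, 0.00 and 0.08. The part of either cell type in the enzyme values was not tested.

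**Figure D3:**
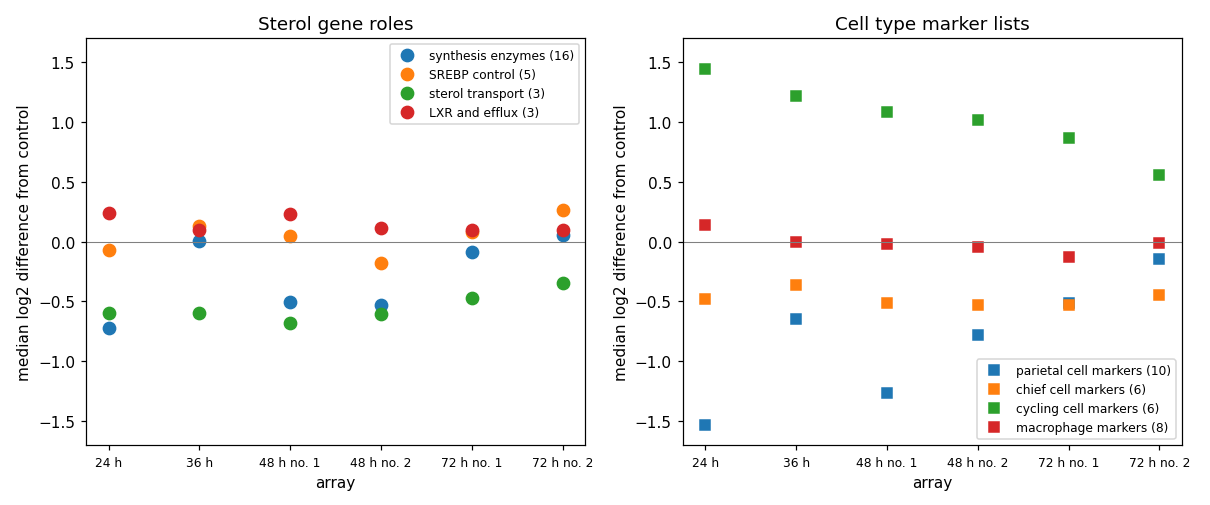
Median log2 difference from the control array (vertical axis) on each of the 6 toxin arrays (horizontal axis) for the 4 sterol gene roles (left, circles) and for 4 cell type marker lists (right, squares), with the number of genes in brackets. Synthesis enzymes lie at -0.72 at 24 h, 0.01 at 36 h and -0.50 and -0.53 on the 48 h arrays, while parietal markers differ between the 48 h arrays (-1.26 and -0.78).

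The comparison of 48 h with 36 h was added after these values were seen. It was made within 1 sex pattern and does not use the control. Of 16 enzymes 14 had both 48 h arrays below the 36 h array (29.5% of all genes did), while Scap, Npc2, Abca1 and Abcg1 had both above it (25.7% did). The median difference of the enzymes was -0.38, against 0.00 over all genes. In limma 0 of 22180 genes passed at an adjusted p under 0.05; at an unadjusted p under 0.05, 7 of 16 enzymes were lower (Mvk, Fdps, Sqle, Lss, Cyp51, Msmo1 and Ebp) as was Stard4, against 3.97% of all genes, and no member was higher, against 3.35%. Sqle differed by -0.96 ± 0.07 (SE) and Fdps by -0.84 ± 0.11, each with an adjusted p of 0.626 in limma. With either 48 h array left out, 3 or 4 enzymes had an unadjusted p under 0.05. The 36 h side is a single array.

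At 48 h against the control, 13 of 16 enzymes, Insig1 and all 3 transport genes had both arrays below the control (34.4% of all genes did), whereas Pmvk, Scap and all 3 LXR and efflux genes had both above it (31.9% did; the median of these 3 is 0.12, and 0.0051 with array medians subtracted). The dim second probe set of Scap had both 48 h arrays below the control, at 4.94 and 4.76 against 4.95. The median difference was -0.52 for synthesis, -0.07 for SREBP control, -0.64 for transport and 0.12 for LXR and efflux, and 0.00 over all genes. In limma 0 of 27 members and 0% of all genes passed at an adjusted p under 0.05. At an unadjusted p under 0.05, 9 enzymes were lower (Hmgcs1, Mvk, Fdft1, Sqle, Lss, Cyp51, Msmo1, Hsd17b7 and Sc5d), with Insig1, Npc1 and Npc2, against 11.6% of all genes lower, and no member was higher, against 8.16%. The smallest adjusted p among the members in limma was 0.121, for Sqle at -0.71 ± 0.07 (SE) and Mvk at -0.61 ± 0.08. Insig1 at -1.11 ± 0.30 and Fdft1 at -0.97 ± 0.22 had larger differences and larger errors, with adjusted p of 0.212 and 0.181. Abca1 was at 0.47 ± 0.15, with an adjusted p of 0.257 in limma. With either 48 h array left out, 3 of 16 enzymes had an unadjusted p under 0.05. The albumin signal of the second 48 h array was not tested for its part in these values; the enzyme medians of the 2 arrays were -0.50 and -0.53.

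At 72 h the enzymes lay on both sides of the control. The synthesis median was 0.01; 4 enzymes (Hmgcs1, Mvk, Fdft1 and Sc5d) had both arrays below the control, where 33.9% of all genes did, and 5 (Pmvk, Mvd, Fdps, Nsdhl and Ebp) had both above, where 34.2% did. In limma 0 members and 0% of genes passed at an adjusted p under 0.05. At an unadjusted p under 0.05, Mvk and Npc2 were lower, 2 of 27 members against 10% of all genes, and Fdps was higher, 1 of 27 against 7.93%. Fdps was at 0.59 ± 0.11 (SE), with an adjusted p of 0.167 in limma, and Mvk at -0.36 ± 0.08, with 0.185. Npc1 remained at -0.49 ± 0.17 and Npc2 at -0.41 ± 0.09, with adjusted p of 0.298 and 0.186 in limma. Cyp51 at -0.02 ± 0.20 and Sqle at 0.04 ± 0.07 were close to the control.

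Between the 2 replicated times, which share a sex pattern and leave out the control, 15 of 16 enzymes had both 72 h arrays above both 48 h arrays, all but Mvd, as had Insig1, Srebf1, Srebf2 and all 3 transport genes; 16.7% of all genes did. Abcg1 had both below, as 13% of genes had. The median difference was 0.45 for synthesis, 0.31 for SREBP control, 0.30 for transport and -0.20 for LXR and efflux, against 0.00 over all genes. In limma 0 members and 0% of all genes passed at an adjusted p under 0.05, and the smallest adjusted p over all genes was 0.705. At an unadjusted p under 0.05, 12 of 27 members were higher (Mvk, Fdps, Fdft1, Sqle, Lss, Cyp51, Msmo1, Nsdhl, Hsd17b7, Srebf2, Stard4 and Npc2), against 4.27% of all genes, and none was lower, against 2.8%. Fdps was 0.89 ± 0.09 (SE) higher, Sqle 0.75 ± 0.06, Cyp51 0.76 ± 0.16 and Insig1 0.76 ± 0.25, each with an adjusted p of 0.705 in limma. Leaving out either 48 h array left 3 enzymes at an unadjusted p under 0.05, and leaving out the first or the second 72 h array left 7 or 5. Parietal markers differed between these times as well (summed signal of 42.2% and 66.3% of the control at 48 h, 75.1% and 92.4% at 72 h), and their part in the result was not tested.

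**Figure D4:**
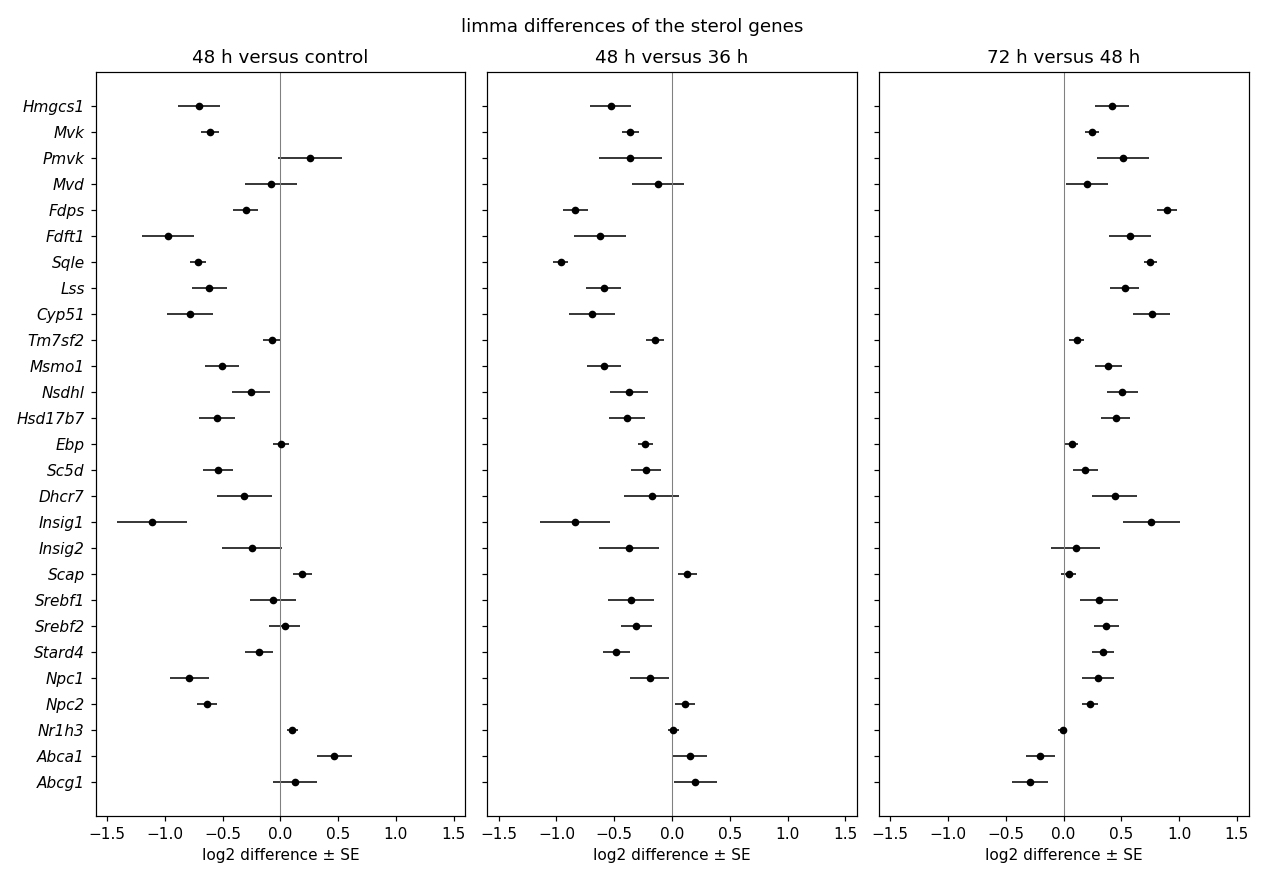
Log2 difference with its standard error from limma (horizontal axis) for each of the 27 sterol genes (rows) in 3 comparisons: 48 h against control, 48 h against 36 h, and 72 h against 48 h. Synthesis enzymes lie mostly left of 0 in the first and second panels and right of 0 in the third, while Tm7sf2 and Ebp lie within 0.24 of 0 in all 3; no gene passed at an adjusted p under 0.05.

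Against the 24 h array, both 72 h arrays were higher in all 16 enzymes (32% of all genes did so) and lower in all 3 LXR and efflux genes (30.8% did). The median difference was 0.79 for synthesis and -0.41 for LXR and efflux. No gene passed at an adjusted p under 0.05 in limma (0% of all genes), while 9 enzymes, Insig1, Srebf2 and Stard4 were higher at an unadjusted p under 0.05, against 5.42% of all genes, and Abca1 was lower, against 5.78%. The differences were 1.61 ± 0.11 (SE) for Fdps, 1.32 ± 0.07 for Sqle, 1.38 ± 0.20 for Cyp51 and -0.58 ± 0.15 for Abca1, with adjusted p of 0.380 for the first 3 and 0.415 for Abca1 in limma. These 2 times differ in sex pattern too.

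Over the 6 toxin arrays a straight line in time was fitted as well. Only the earliest of these, the 24 h array, has the sex pattern of the control, so the slope also compares the patterns. The median slope per 24 h was 0.30 for synthesis and -0.17 for LXR and efflux. No gene passed at an adjusted p under 0.05 in limma (0% of all genes), and 3 enzymes (Fdps, Cyp51 and Nsdhl) and Scap had a positive slope at an unadjusted p under 0.05, against 4.22% of all genes; no member had a negative one, against 4.47%. Without the 36 h array, an alternative chosen after the values were seen, 10 of 16 enzymes had a positive slope at that level; without the 24 h array 0 had.

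Other genes of the sterol and SREBP pathways, taken from lists of related genes, were set beside the members; those named only for an unadjusted p were picked after their values were seen. Of 7 further synthesis genes measured, 6 were lower than the control at 24 h (46.6% of all genes were), with a median of -0.48, and 3 were lower at 48 h at an unadjusted p under 0.05 (Acat1, Acly and Ggps1), against 11.6% of all genes. Acat1, the mitochondrial thiolase, was -0.84 ± 0.09 (SE) at 48 h and between -0.90 and -0.63 on all toxin arrays; Cyb5r3, which supplies electrons to sterol oxidation, was lowest at -1.17 at 24 h. Among 11 fatty acid genes that SREBP activates, 8 were lower at 24 h (46.6% of all genes were), with a median of -0.37. At 48 h 3 were lower (Fads1, Elovl5 and Lpin1) and 2 higher (Me1 and Pnpla3) at an unadjusted p under 0.05, against 11.6% and 8.16% of all genes. Scd1, the fatty acid desaturase, had a log2 signal of 7.53 in the control and of 5.39, 6.37, 5.87, 4.87, 5.24 and 7.07 after toxin, so that its replicates at 72 h lay far apart; at 48 h it was -2.16 ± 1.02 (SE) from the control. Fasn, fatty acid synthase, was above the control on all 6 arrays, by 0.26 at 24 h and 1.15 at 36 h, and Fads1, another desaturase, was below it on all 6, by -1.01 to -0.59.

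Of 8 further genes of SREBP control, the median lay between -0.105 and -0.0063 on the toxin arrays, and 1 was lower at 48 h at an unadjusted p under 0.05, a share near the 11.6% of all genes; that was Marchf6, a ubiquitin ligase of the endoplasmic reticulum, at -0.38 ± 0.12 (SE). Mylip, which marks lipoprotein receptors for degradation, was at -0.08 ± 0.22. Uptake was covered by 5 measured genes, with a median of -0.39 at 24 h. The receptor gene Lrp1 was the 1 gene of these 5 higher at 48 h at an unadjusted p under 0.05 (8.16% of all genes were), at 0.65 ± 0.16, and Lipa, the lysosomal cholesteryl ester hydrolase, was at -0.42 ± 0.31. From a list of sterol transfer and ester genes 8 were measured, without the esterification genes Soat1 and Soat2. Among these 8 genes, 3 were lower at 48 h at an unadjusted p under 0.05 (11.6% of all genes were). They were Osbp and the sterol transfer genes Gramd1c at -0.91 ± 0.05 and Gramd1b at -0.70 ± 0.08. Gramd1c was between -0.94 and -0.86 on all 6 toxin arrays, so that its difference from the lone control array did not follow time. Cyp7b1, an oxysterol hydroxylase among 13 further LXR and efflux genes, likewise was between -1.08 and -0.96 on all 6 arrays. It was dim, with a signal of 5.80 in the control and between 4.71 and 4.84 after toxin. Its value was the same at 24 h, at 36 h and on the second 48 h array. Smpdl3a, of the same list, was between -0.86 and -0.58. At 24 h the 13 genes of that list had a median of 0.0055, with 4 lower than the control (46.6% of all genes were). Cyp7b1 and Smpdl3a were the 2 of 13 genes of that list lower at 48 h at an unadjusted p under 0.05. That share is near the 11.6% of all genes. None of these genes passed at an adjusted p under 0.05 in limma.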

How the data were processed

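The authors deposited log2 signal from 7 Affymetrix arrays, 41345 probe sets, made with RMA in Partek per the submitters' processing notes; no version or genome build is stated there. Array medians of the deposited values ran from 4.56 to 4.71, and 0 sample columns were left unused. Probe sets with 1 annotated gene (23521) were kept, those with several (1814) or none (16010) were not, and the highest-mean probe set was taken per gene.

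All 22180 genes were fitted in R 4.3.3 by limma (version 3.58.1; lmFit, then eBayes; two-sided), all 7 arrays entering with 1 mean for each group, and with Benjamini-Hochberg adjustment over all genes and a threshold of 0.05. Residual degrees of freedom were 2, from the 48 h and 72 h pairs, whose spread the lone arrays are assumed to share; the slope had 4. Single arrays (24 h and 36 h against control) were compared by counts of at least 2-fold. The alternatives were other scalings, filters on dim or coarsely valued genes, the mean of probe sets, left-out arrays and a replicate block; the comparison of 48 h with 36 h and the slope without 36 h were added after the values were seen. The scripts were tested on simulated data.

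Named genes were all members, and other pathway genes at least 2-fold from the control on any array or, failing 2 in a list, the 2 with the largest mean absolute difference. Members, lists and tests were chosen with earlier results of these data known. The arrays were not treated as paired by their shared replicate numbers. The within-pair differences at 48 h and 72 h had r = -0.13 across genes. With 1 pair at each time, that value cannot settle whether the arrays were paired.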

Additional observations from a re-analysis of the deposited data

How the results depend on the processing

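In all alternatives run, 0 members passed at an adjusted p under 0.05 in limma. The count over all genes changed: at 48 h against control it was 7 after a repeated quantile normalisation, 167 after subtracting array medians and 143 where only genes holding 6 or more distinct values were tested. In the same order it was, at 72 h against control 5, 30 and 52, and at 72 h against 24 h 3, 3 and 3; the cause was not tested. Array medians lay 0.04 to 0.14 above the control, while the median gene did not shift. Enzymes at an unadjusted p under 0.05 at 72 h against control numbered 4 after either scaling, against 2. Leaving out 1 replicate, which lowers the degrees of freedom, gave 3 at 48 h against control, 3 to 7 at 72 h against 48 h, 3 to 4 at 48 h against 36 h and 0 to 1 for the slope. The slope gave 6 with array medians subtracted, 0 without the 24 h array and 10 without the 36 h array. With the replicate block, 72 h against 48 h gave 0 genes called and 10 enzymes at an unadjusted p under 0.05, against 9.

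With array medians subtracted, the medians over 24 h, 36 h and 48 h were -0.80, -0.089 and -0.64 for synthesis, -0.67, -0.69 and -0.76 for transport, and 0.17, -0.0048 and 0.0051 for LXR and efflux. After the repeated quantile normalisation, LXR and efflux stood at 0.18, 0.0049 and 0.056, and transport at 48 h at -0.56. With the mean of probe sets, transport was -0.30, -0.39 and -0.25 over 36 h, 48 h and 72 h. Leaving out 1 replicate moved synthesis at 72 h between -0.083 and 0.052, SREBP control at 72 h between 0.080 and 0.26, and LXR and efflux at 48 h between 0.11 and 0.23. The small LXR and efflux medians at 36 h and 48 h therefore depend on the scaling.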
